A study of Homo sapiens with 16 samples.

Results

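Binding of the G84E form of HOXB13, put back into LNCaP cells whose own HOXB13 had been knocked down, was set against HOXB13 binding in LNCaP control cells. The comparison rests on 2 peak lists, each from 1 chromatin immunoprecipitation sequencing library: 191796 HOXB13 peaks in the cells with HOXB13-G84E and 91430 in the control cells, together 283226 of the 816313 peaks in the 12 lists used here. A control site was counted as restored where a G84E peak overlapped it by at least 1 bp. By this rule 57824 control sites were restored, 33606 were not restored, and 133971 G84E peaks were additional, with no control peak under them. No member was left out for low signal. "Restored" describes the overlap alone and includes sites that may never have lost HOXB13, and the peak list made after HOXB13 shRNA alone still covered 1.48% of the control sites.

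HOXB13 is a homeodomain transcription factor of the prostate lineage that binds DNA together with factors such as the androgen receptor, FOXA1 and MEIS proteins. G84E is an inherited HOXB13 variant associated with prostate cancer risk, and it lies outside the homeodomain, in the part of the protein that contacts MEIS partners. HDAC3 is a histone deacetylase that works in the NCOR and SMRT corepressor complexes, and the study profiled it beside HOXB13. HDAC1 is a related deacetylase found mainly in other complexes, and ATAC-seq marks chromatin open to a transposase.

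LNCaP is an established line of human prostate cancer cells. In the first group, cells were infected with a lentiviral shRNA against HOXB13 and at the same time with a lentivirus that carries HOXB13-G84E. A second group received the same shRNA with HOXB13-WT and is used here for side-by-side values. Control cells received the pGIPZ control shRNA. All these LNCaP infections lasted 7 days. The PC-3 lists used below come from cells with the pGIPZ control shRNA, for which no infection time is given here. The 3 HOXB13 libraries of these LNCaP groups were made with the same lot of anti-HOXB13 antibody. That antibody does not tell the introduced protein from what remained of the cells' own. Each group has 1 library, so no difference between the forms could be tested against replicate error. The intervals below are 95% intervals of counting error, and peaks of 1 library are not replicates of a condition.

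The G84E library held 44.2 M tags with 15.6% of them in peaks, the WT library 40.3 M with 17.1%, and the control library 34.4 M with 9.17%. The peak caller allowed up to 2 tags per position in the G84E and WT libraries and 1 in the control library. Its detection threshold was 19 tags in the G84E library and 16 in the control library, which come to 4.30 and 4.66 tags per 10 M. Peak strength is given throughout as normalized tags, that is tags in the peak per 10 M tags of the library. Peak width was 283 bp in the G84E list and 290 bp in the control list. The series also holds LNCaP H3K27ac samples that are not analysed here. The lists pair no peak with a gene, and no hg19 annotation was used here, so sites are given by hg19 coordinates and the LNCaP label was not checked against marker genes.

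G84E re-expression placed a peak on 63.2% of control HOXB13 sites, and the share followed how strongly the control cells had bound the site. Restored sites had a median of 8.44 normalized tags in control cells (quartiles 6.40 and 12.2), against 6.40 (quartiles 5.53 and 7.86) at sites that were not restored. Over 10 equal groups of control strength the share restored by G84E rose without a break, with 42.3% in the weakest group, 56.2% in the fifth, 76.4% in the eighth and 96.0% in the strongest. Wild-type HOXB13 restored a larger share in each of the 10 groups. The gap was smallest at the ends. It was -1.31 percentage points (G84E minus WT, -2.75 to 0.123) in the weakest group and -1.74 in the strongest. Between them it was widest, at -6.23 in the seventh group and -6.12 in the eighth. The interval in the weakest group treats the 2 shares as if from separate sites, although both forms were scored on the same sites. It is therefore no guide to whether the gap there differs from 0.

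**Figure D1:**
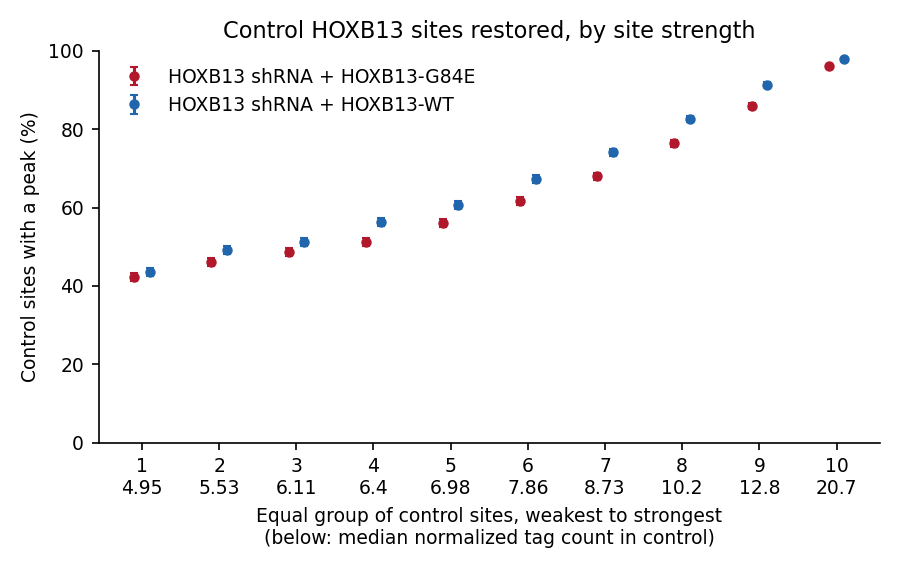
Percent of control HOXB13 sites with an overlapping peak (vertical axis) in 10 equal groups of control tag count (horizontal axis, weakest at the left, with the median normalized tag count below each), for HOXB13-G84E and HOXB13-WT; bars are 95% Wilson intervals. The G84E points climb from 42.3% to 96.0% and lie below the WT points in every group.

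The overlap rule itself keeps the centres of a restored pair within about a peak width of each other, so their distances are given as a description. The centres of restored peak pairs lay a median of 40 bp apart (quartiles 18 and 77 bp), and 83.9% of pairs had centres within 100 bp. The median distance was 25 bp in the strongest group and 51 bp in the weakest. The focus ratio, the share of a peak's tags that lie on the expected strand around its centre, differed by a median of 0 between the paired peaks (quartiles -0.055 and 0.058). The edge of the rule was thinly populated. An overlap of only 1 to 20 bp was found at 298 pairs, with a median of 7.02 normalized tags in G84E cells and 6.98 in control cells, while 278 control sites, with a median of 6.98, missed a G84E peak by a gap of up to 20 bp. A single control site met 2 G84E peaks.

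The nearest G84E peak to sites that were not restored lay a median of 3603 bp away. Of these sites 17.9% had one within 1000 bp and 83.1% within 10000 bp. Such distances depend on the length of the G84E list, and no baseline from random positions was made. Sites that were not restored rose less above their surroundings. The tag density of the control peak was a median of 7.40-fold that of the surrounding 10 kb at restored sites and 5.76-fold at sites that were not restored. The share restored was lower where more G84E peaks, other than any on the site itself, stood nearby. It was 72.5% for control sites with no other G84E peak within 5 kb (n = 47504), 57.3% with 1 (n = 35043), 38.7% with 2 (n = 8133) and 22.9% with 3 or more (n = 750). For the same sites the WT shares were 73.3%, 63.4%, 52.3% and 43.9%. The groups count neighbours in the G84E list, which also decides restoration by G84E, and WT neighbours were not counted. How steeply the 2 forms fall with crowding can therefore not be compared. Among the strongest control sites the G84E share was lower too, with 98.9%, 93.2%, 81.1% and 64.3% in the same order, the last from 42 sites.

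This ordering has to be read with the peak caller in view. It kept a peak only if its density was at least 4-fold that of the surrounding 10 kb, and this local filter removed 30.3% of putative peaks in the G84E library, 25% in the WT library and 22% in the control library. Over 5 equal groups of enrichment over the surroundings, control sites were restored in 44.2% of cases in the lowest and 86.9% in the highest. In the strongest group the shares by that same measure ran from 64.2% to 98.2%. The part that the local filter plays in sites counted as not restored was not tested, since the lists hold the peaks that passed it.

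The 5 strongest sites that were not restored, outside regions called in 9 or more lists, had between 62.0 and 119.3 normalized tags in control cells. The strongest was chr9:66833168-66833458, with 119.3 normalized tags from 410 tags in control cells and 93.9 in WT cells. A G84E peak of 109.8 normalized tags at chr9:66833700-66833982, counted as additional, had its centre 528 bp away. Of the other 4, chr9:68420709-68420999 had 115.8 normalized tags in control cells and a WT peak of 133.1, and chr1:121354901-121355191 had 102.4 in control cells and a WT peak of 71.0. The remaining 2, on chromosomes 21 and 19, had no WT peak either. Of these sites, 4 of the 5 were also called in the HOXB13 list made after knockdown, against 1.31% of all sites not restored. A G84E peak centre lay within 1135 bp of 4 of them. Of the 5, 3 rose less than 5-fold over their surroundings, against a median of 5.76-fold at all sites not restored. Picked as the strongest, they do not stand for that class in general.

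Among sites where control cells had ATAC and HDAC3 peaks together, the strongest not restored were weaker than the 5 sites above, with at most 50.1 normalized tags. The strongest, chr1:121289192-121289482, had 50.1 in control cells and 48.7 in WT cells. The next was chr12:61104083-61104373, which had 30.0 normalized tags in control cells and 26.6 in WT cells, and whose nearest G84E peak centre was 2549 bp away. All 5 such sites carried a WT peak, as did 83.4% of all control sites with ATAC and HDAC3 but no HDAC1 peak. The strongest restored sites of the same kind, chosen as a set after their values were seen, held more. That order follows from the rise of the share restored with control strength and adds nothing to it. Of these, chr1:145246240-145246530 had 89.4 normalized tags in G84E cells, 135.6 in WT cells and 125.4 in control cells. The site chr20:10639420-10639710 had 105.9 in G84E cells, 106.5 in WT cells and 88.8 in control cells.

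Restored sites overlapped ATAC, HDAC3 and PC-3 HOXB13 peaks more often than sites that were not restored, but for ATAC this order turned round once control strength was held equal. A control ATAC peak lay on 11.6% of restored sites and on 8.06% of sites not restored, a difference of 3.50 percentage points (3.11 to 3.89). Standardised, it was -3.74 (-4.64 to -2.84). This is the average of the differences within the 10 groups of control strength, weighted by the restored sites in each. The strongest group has the most weight and spans 15.4 to 9132.2 normalized tags, so strength is matched only roughly there. For HDAC3 the shares were 15.6% and 9.60%, a difference of 6.01 points, and -0.192 (-1.09 to 0.707) when standardised. For HDAC1 they were 1.89% and 2.03%. PC-3 cells, an androgen-independent line of prostate cancer cells, bound HOXB13 at 26.5% of restored LNCaP sites and at 11.7% of those not restored, and here the difference of 14.7 points stayed at 9.68 (8.77 to 10.6) when standardised.

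**Figure D2:**
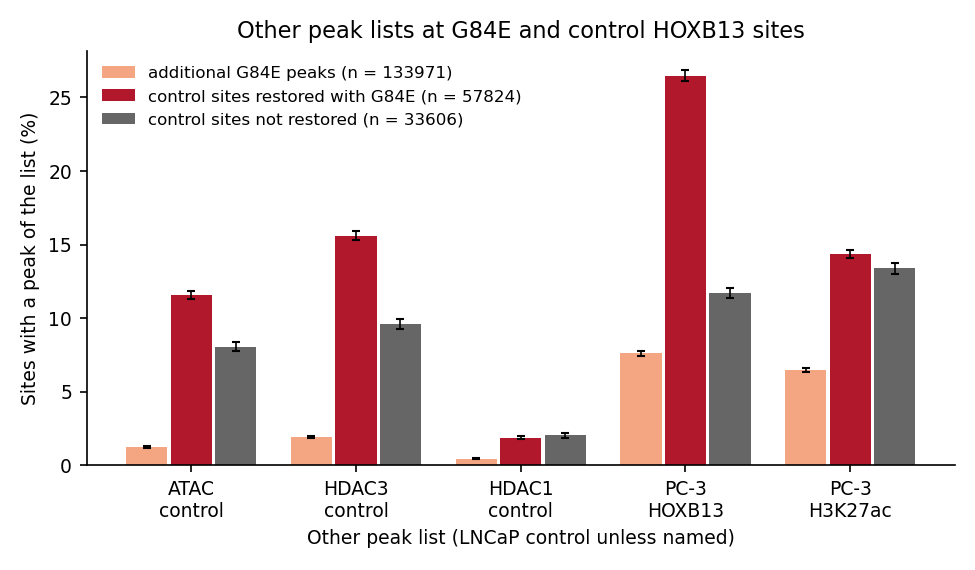
Percent of sites with a peak of each other list (vertical axis) for additional G84E peaks, control sites restored with G84E and control sites not restored, with 95% Wilson intervals. Restored sites stand highest for control ATAC (11.6%), control HDAC3 (15.6%) and PC-3 HOXB13 (26.5%), and additional peaks lowest in all 5 lists.

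Read the other way, control sites with an ATAC peak were restored by G84E less often than sites of the same strength without one. Of control HOXB13 sites with a control ATAC peak, G84E restored 71.2%, against 62.3% of those without one, yet their median control strength was 10.8 and 7.28 normalized tags. At equal strength the difference was -5.21 points (-6.08 to -4.34), and it was negative in 10 of 10 strength groups. The WT value, taken against the same control list, was -0.504 (-1.29 to 0.284), negative in 5 of the 10. Sites with an HDAC3 peak were restored by G84E in 73.7% of cases, against 61.6% of sites without, and at equal strength the difference was -1.24 (-2.00 to -0.479); the WT value was 2.18 (1.49 to 2.87), positive in 10 of 10 groups. HDAC1 sites, of which there were 1775, gave -7.36 (-9.46 to -5.27) for G84E and -6.08 (-8.10 to -4.05) for WT. Sites shared with PC-3 gave 10.2 (9.58 to 10.8) for G84E and 10.7 (10.1 to 11.2) for WT, positive in 10 of 10 groups for both. Sites under a PC-3 H3K27ac region, a mark of active regulatory DNA, gave -3.78 for G84E and -1.61 for WT. Enrichment over the surroundings differed with the mark as well, with a median of 8.18-fold at sites with an ATAC peak and 6.55-fold at sites without.

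Combining the 3 control lists separated the sites further. G84E restored 75.6% of the 4372 sites with ATAC and HDAC3 peaks but no HDAC1 peak, 74.3% of the 6629 with HDAC3 alone and 70.3% of the 3856 with ATAC alone. It restored 61.2% of the 74798 sites with none of the 3, whose median of 6.98 normalized tags in control cells was also the lowest. Sites where HDAC1 joined an ATAC peak were restored less often than those with ATAC but no HDAC1. G84E restored 60.0% (56.8 to 63.1) of the 915 sites with all 3 peaks and 49.0% (42.9 to 55.1) of the 253 sites with ATAC and HDAC1 but no HDAC3, and WT restored 67.3% and 58.9% of them. Their median strengths, 8.15 and 7.86 normalized tags, lay between those of the other classes. The interval for sites with all 3 peaks includes the 61.2% of sites with none. Without an ATAC peak, G84E restored 64.1% (58.2 to 69.6) of the 270 sites with HDAC1 alone. It restored 73.0% (68.0 to 77.5) of the 337 sites with HDAC3 and HDAC1.

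**Figure D3:**
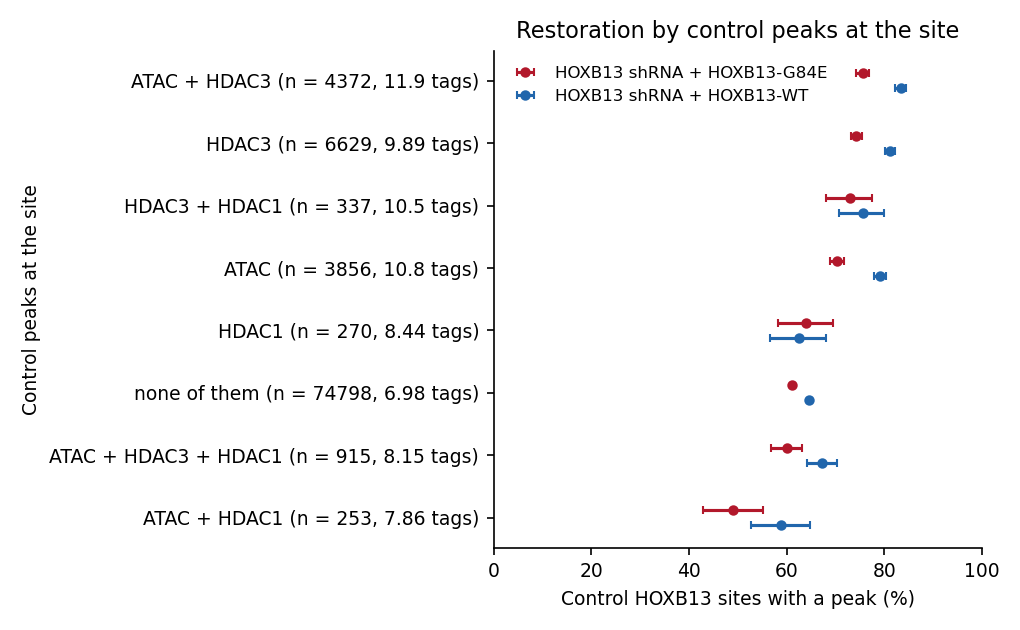
Percent of control HOXB13 sites with an overlapping peak (horizontal axis) for HOXB13-G84E and HOXB13-WT, by which of the control ATAC, HDAC3 and HDAC1 lists also had a peak at the site; n and the median normalized tag count in control are beside each class, and bars are 95% Wilson intervals. G84E values run from 49.0% for ATAC with HDAC1 to 75.6% for ATAC with HDAC3.

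Sites whose ATAC peak was absent from the list made after knockdown were restored more often than those that kept it. Of control HOXB13 sites with a control ATAC peak, 6085 also had an ATAC peak after HOXB13 knockdown and 3311 did not; G84E restored 69.1% and 75% of these, a difference of -5.86 points (-7.72 to -3.97). For WT the shares were 78.0% and 82.1%. Sites that kept their HDAC3 peak after knockdown were restored by G84E in 72.1% of 5607 cases, and those that lost it in 75% of 6646, a difference of -2.97 points (-4.54 to -1.40). The median control strengths were 10.5 and 11.3 normalized tags for the ATAC classes and 10.5 in both HDAC3 classes. These differences were not standardised for strength.

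At restored sites the G84E and control signals had a median ratio near 1. The log2 ratio of normalized tags, G84E over control, had a median of 0.016 with quartiles of -0.36 and 0.43, and 90% of the sites lay between -0.90 and 1.09. The ratio reached 1 or above, a 2-fold rise, at 3726 sites, which is 6.44% of the restored sites, and -1 or below, a 2-fold fall, at 2018 sites, which is 3.49%. With the G84E list held to as many peaks as the control list, rises numbered 3726 and falls 915, and the median log2 ratio was 0.17. That cut takes out weak G84E peaks, which by itself favours fewer falls and a higher median, so these values are no separate result. The peak caller's limit on tags per position also differed between these libraries, and its part in the ratios and in the 2-fold counts was not tested. WT ratios at its own restored sites had a median of 0.17. Since a site enters the ratio only if both lists called a peak there, deep losses of G84E signal count as not restored and do not appear among the falls.

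How the ratio moved with site strength depended on which library ranked the sites. Ranked by control strength, the median log2 ratio went from 0.37 in the weakest of 10 groups to -0.30 in the strongest. Ranked by WT strength, over the restored sites that also had a WT peak, it went the other way, with -0.13 in the weakest and 0.23 in the strongest group. Ranked by the mean of the G84E and control tags it was -0.15 in the weakest group, 0.14 in the eighth and 0.0055 in the strongest. No single trend with strength can therefore be read from these 2 libraries.

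The lower signal at open sites did not depend on that choice. Restored sites with a control ATAC peak had a median log2 ratio of -0.30 (-0.31 to -0.28), against 0.062 at those without one. At equal strength the difference was -0.22 when control tags ranked the sites, -0.48 with WT tags and -0.44 with the mean of G84E and control tags, below 0 in all 10 groups under each ranking. HDAC3 sites had a median of -0.23, against 0.065 without HDAC3, and differences at equal strength of -0.17, -0.43 and -0.38. HDAC1 sites had a median of -0.31, against 0.023 without HDAC1. For WT at the same kinds of site the medians were -0.0083 with and 0.20 without ATAC, 0.045 with and 0.20 without HDAC3, and -0.14 with and 0.18 without HDAC1. PC-3 sites showed no such offset in the G84E ratio, with 0.018 with and 0.015 without a PC-3 HOXB13 peak, and a sign at equal strength that changed with the ranking, at 0.11, -0.084 and -0.038.

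**Figure D4:**
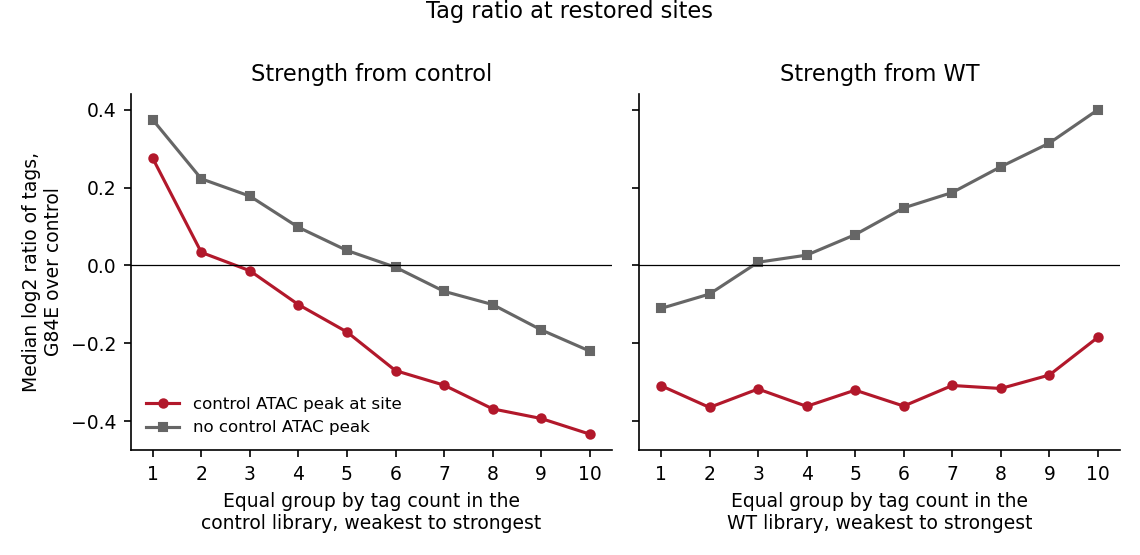
Median log2 ratio of normalized tags, G84E over control, at restored sites (vertical axis) in 10 equal groups of site strength (horizontal axis, weakest at the left), with and without a control ATAC peak, with strength taken from the control library (left) or the WT library (right). The trend with strength turns round between the panels, and sites with an ATAC peak lie below the others in every group of both.

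The 2-fold changes, which are cut from the same ratios and are no separate result, divided along the same line. Of the 3726 sites with a 2-fold rise, 1.26% (0.95 to 1.67) overlapped ATAC in control cells and 4.59% overlapped HDAC3, whereas of the 2018 with a 2-fold fall 28.3% (26.4 to 30.4) overlapped ATAC and 34.3% HDAC3. Over all restored sites the shares were 11.6% and 15.6%. PC-3 HOXB13 peaks lay on 32.4% of the risen and 30.4% of the fallen sites. The 2 sets also differed in strength, as a choice by ratio favours. Risen sites had medians of 17.4 normalized tags in G84E cells and 6.69 in control cells, and fallen sites 5.88 in G84E cells and 14.3 in control cells. The shares of the 2 sets were not standardised for strength. Seen from the open sites, 0.703% of restored sites with an ATAC peak rose 2-fold and 8.55% fell 2-fold, against 6.44% and 3.49% over all restored sites.

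The largest rises among restored sites had few control tags, as their choice by ratio favours. The site chr14:45517651-45517941 had 50.0 normalized tags in G84E cells (221 tags), 55.1 in WT cells and 6.11 in control cells (21 tags), a log2 ratio of G84E over control of 3.03 (2.38 to 3.75). At chr9:77769179-77769469 the values were 56.1 in G84E cells, 70.0 in WT cells and 6.98 in control cells. None of the 5 largest rises had a control ATAC, HDAC3 or HDAC1 peak, which 20.8% of all restored sites had, and 5 sites are too few to set apart from that share. Of the 5, 1 had a PC-3 HOXB13 peak, against 26.5% of all restored sites. All 5 had a WT peak of 34.0 normalized tags or more, and a WT peak of any height lay on 61639 of the 91430 control sites.

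Among the 5 largest falls, 3 had a control ATAC, HDAC3 or HDAC1 peak and 2 had none. The site chr11:64053080-64053370 had 6.79 normalized tags in G84E cells (30 tags), 12.9 in WT cells and 61.4 in control cells (211 tags), a log2 ratio of -3.18 (-3.78 to -2.62), and none of those 3 peaks. The other without one, chr18:38468285-38468575, had 4.30 normalized tags in G84E cells, 7.45 in WT cells and 20.7 in control cells. At chr9:126031040-126031330, where control cells also had ATAC, HDAC3 and HDAC1 peaks, the values were 7.47 in G84E cells, 6.46 in WT cells and 60.2 in control cells. At chr22:47100726-47101016, which had an HDAC3 peak, they were 6.34, 14.2 and 31.4 normalized tags in G84E, WT and control cells. With WT, signal was below control at 23508 of the 61639 control sites with a WT peak. It was below control at all 5 of the largest falls too. These sites were picked as extremes, and their intervals take no account of that.

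The 5 strongest restored sites lay on chromosomes 10, 7 and 6. In all 5, as at 28076 of all 57824 restored sites, the G84E signal was below the control signal. The control peaks of these 5 rose only 4.07- to 6.82-fold over the surroundings, below the median of 7.40-fold at all restored sites. They therefore do not stand for restored sites in general. The strongest, chr10:42391552-42391842, had 997.8 normalized tags in G84E cells, 1431.5 in control cells and no WT peak. At chr10:42400301-42400591 the values were 712.0 in G84E cells, 708.7 in WT cells and 968.8 in control cells, and the knockdown list had 1435.5 there. At chr7:61970258-61970548 they were 711.0 in G84E cells, 745.7 in WT cells and 881.8 in control cells, with 1325.8 in the knockdown list. The knockdown list thus held more signal than any other LNCaP HOXB13 list at both of these sites.

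Most G84E peaks were additional, and they were mostly weak. The WT list was about as long, with 190879 peaks, and 61639 control sites had a WT peak. A long list with most peaks off control sites was therefore not particular to G84E. Of the G84E list 30.1% lay on control sites, and the 133971 additional peaks had a median of 5.66 normalized tags, against 9.05 for G84E peaks on control sites. By strength, 90.7% of the weakest of 10 equal groups of G84E peaks were additional, 81.0% of the fifth and 20.7% of the strongest. At or above the control median of 7.28 normalized tags there were 30869 additional peaks, 23% of them, and at or above the 15.4 tags that bound the strongest control group there were 2020, or 1.51%. The nearest control peak to additional peaks lay a median of 10664 bp away, and within 1000 bp for 5.76%. The control list is the shorter one, so this distance cannot be set against that of sites not restored.

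**Figure D5:**
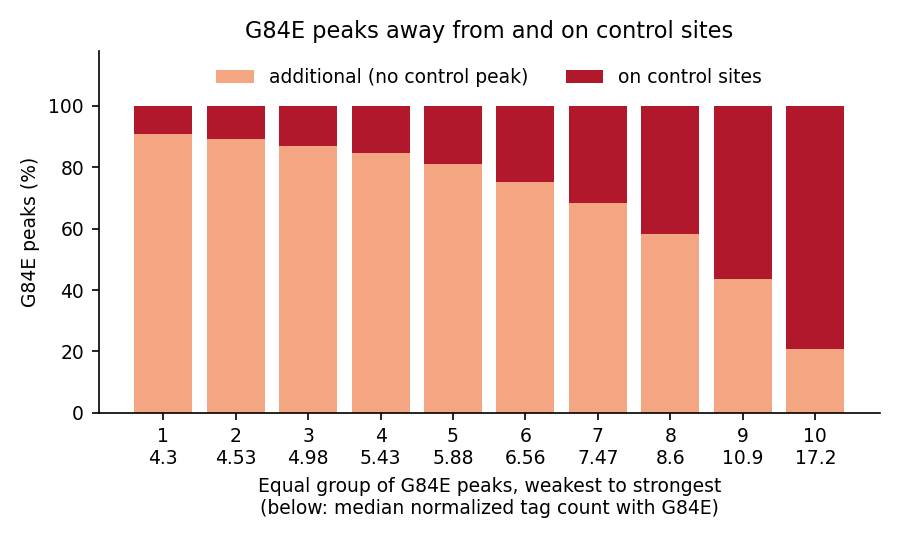
Percent of G84E peaks that were additional or on control sites (vertical axis, stacked to 100) in 10 equal groups of G84E tag count (horizontal axis, weakest at the left, with the median normalized tag count below each). Additional peaks make up 90.7% of the weakest group and 20.7% of the strongest.

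Additional G84E peaks rarely met a control ATAC peak, in weak and strong groups alike. A control ATAC peak lay under 1.23% of additional peaks in the weakest group of G84E strength and under 1.29% in the strongest, and between 1.13% and 1.38% in all 10. On control sites the share was 9.43% in the weakest group and 16.1% in the strongest. PC-3 HOXB13 peaks behaved otherwise, with 4.55% of additional peaks in the weakest group and 21.6% in the strongest, beside 13.9% and 39.9% on control sites. At equal G84E strength, additional minus on-site peaks differed by -7.88 points for ATAC (-8.23 to -7.54), -10.5 for HDAC3 (-10.9 to -10.1), -1.47 for HDAC1 and -11.2 for PC-3 HOXB13 (-11.7 to -10.8). ATAC peaks after knockdown lay under 1.08% of additional peaks, and no ATAC list from cells with G84E was analysed here.

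The few additional peaks at sites with both ATAC and HDAC3 in control cells numbered 911, or 0.680% of them. The strongest, chr15:80070326-80070608, had 30.1 normalized tags in G84E cells and no WT peak, and its nearest control HOXB13 peak centre was 372 bp away. At chr3:177803502-177803784 G84E cells had 24.2 and WT cells 35.8 normalized tags, and the nearest control peak centre was 556 bp away. All 5 of the strongest such peaks had a control HOXB13 peak centre within 701 bp. Of all additional peaks, 5.76% had one within 1000 bp. A WT peak lay on 4 of the 5, and the share over all additional peaks is not given here.

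Seen from the other lists, G84E covered fewer of the open and HDAC3-bound regions than control HOXB13 did, although its list was longer. Of 37073 control ATAC peaks, 22.8% met a G84E peak, 26.9% a WT peak and 26.1% a control HOXB13 peak, so G84E minus control was -3.32 points (-3.94 to -2.70). Regions gained and lost both occurred: 5.56% of the ATAC peaks met G84E but not control HOXB13, and 8.88% met control HOXB13 but not G84E. Of 33964 control HDAC3 peaks the shares were 34.1% with G84E, 39.2% with WT and 36.1% with control HOXB13. HDAC1 gave 10.1%, 12.1% and 10.7% in the same order. For the PC-3 lists G84E was above control with all peaks: 36.0% of HOXB13 peaks met a G84E peak, 38.9% a WT peak and 27.2% a control peak, and for H3K27ac regions the shares were 29.5%, 32.0% and 23.2%. List length bears on all of these shares. With the G84E and WT lists held to 91430 peaks each, as many as in the control list, the ATAC shares were 16.8% with G84E and 20.1% with WT, and the HDAC3 shares 24.8% and 29.2%. Held so, PC-3 HOXB13 shares were 26.2% with G84E, 28.2% with WT and 27.2% with control, and PC-3 H3K27ac shares 18.5%, 20.3% and 23.2%, so that G84E lay below control in the PC-3 lists as well.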

How the data were processed

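HOXB13 chromatin from LNCaP cells was sequenced single-end, per the labels' protocols. Reads were processed with Bowtie2, HOMER 4.2 and hg19, per the submitters' processing notes. Peaks were called by the authors with HOMER findPeaks on each library alone, with no input library, at a false discovery rate of 0.001 and with a local filter of 4-fold over 10 kb at a p-value of 0.0001, per the file headers. The signal used is the deposited normalized tag count (tags per 10 M), and whole tags were recovered from it and the total in the header. The focus ratio is a deposited fraction, the fold over local background is a deposited ratio, and peaks were ranked by the deposited findPeaks score.

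Peaks were paired by overlap of at least 1 bp. Each group has 1 library, so no test between groups was made. Shares have 95% Wilson intervals, differences of shares Newcombe intervals, medians order-statistic intervals, and ratios at named sites exact binomial (Clopper-Pearson) intervals. All cover counting error only. Newcombe intervals of G84E minus WT and of G84E minus control treat the 2 shares as if from separate sites, although both were taken over the same sites. Standardised differences average the differences within 10 equal groups of tag count. Each group is weighted by its number of sites in the first class: restored, additional, or with the peak in question. Values at equal strength are such averages, and strength still varies within a group, most in the strongest. Named sites are the 5 most extreme of each kind on chromosomes 1 to 22 and X, outside regions called in 9 or more of the 12 lists, with a mean of at least the control median for rises and falls. The members and lists were chosen with earlier results of these data known. The overlap functions were tested on simulated peaks. Gene loci, motifs and cell type markers need an hg19 annotation or sequence and are not analysed here. Python 3.11.15, numpy 2.4.6, pandas 2.3.3, scipy 1.17.1 and matplotlib 3.10.9 were used.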

Additional observations from a re-analysis of the deposited data

How the results depend on the processing

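Values are given in a fixed order: share of control sites restored (%), share of G84E peaks additional (%), median log2 ratio, sites with a 2-fold rise, sites with a 2-fold fall, G84E minus WT restored (points), restored minus not restored for ATAC and for HDAC3 (points), and additional minus on-site for ATAC and for HDAC3 (points); a value that moved by less than its counting interval, or a count within 1.5 times, is left out. As reported they were 63.2, 69.9, 0.016, 3726, 2018, -4.17, 3.50, 6.01, -10.1 and -13.6. With peak centres within 100 bp, the restored share was 53.0, additional 74.7, and the 4 list differences 2.78, 3.76, -7.30 and -7.78. Where the overlap had to cover 50% or more of the shorter peak, they were restored 58.7, additional 72.0, HDAC3 5.32, and additional minus on-site -9.09 and -11.9. In the better-scoring 50% of every list all 10 moved, to 70.0, 66.6, -0.0047 (the sign of the median turned), 1741, 962, -5.73, 0.157, 2.54, -7.05 and -11.5. With equal numbers of peaks, restored was 48.3, additional 51.7, the median 0.17, falls 915, and the list differences 4.21, 6.70, -10.9 and -14.6. That cut takes out weak G84E peaks, which by itself favours fewer falls and a higher median. Without regions called in 9 or more lists, restored was 62.6, additional 70.5, the median 0.028, and the list differences 1.76, 4.09, -7.89 and -11.3. With a common floor of tag count, restored was 59.9, additional 65.3, the median 0.053, G84E minus WT -5.30, and additional minus on-site -10.5 and -14.1. Per bp of peak the median was 0.052. Standardised over 10 groups of tag count, restored minus not restored turned round to -3.74 for ATAC and was -0.192 for HDAC3, with an interval of -1.09 to 0.707 that spans 0, and additional minus on-site was -7.88 and -10.5. In an alternative added after seeing the data, only sites with no other G84E peak within 5 kb, restored was 72.5 and the differences 4.53 for ATAC and 7.10 for HDAC3. On chromosomes 1 to 22 and X alone no value moved, and with ratios centred on their median rises and falls were 3522 and 2141. The cause of these shifts was not tested. No paired analysis was possible because each group has 1 library and the labels carry no replicate numbers. Depth and the threshold differ between the libraries, so a weak site without a peak is undetected at this depth, not shown to be unbound.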

Other observations

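The G84E comparison was much alike along the genome. The share of control sites restored lay between 60.7% on chromosome 4 and 67.6% on chromosome X, and the WT share was higher on each of the 23 chromosomes compared. The share of G84E peaks that were additional ran from 62.5% on chromosome 22 and 63.3% on chromosome 19 to 73.8% on chromosome 4 and 74.1% on chromosome X. The median log2 ratio at restored sites was lowest on chromosomes 19 (-0.12) and X (-0.11) and highest on chromosome 18 (0.070). Chromosome X combined the highest restored share, the highest additional share and a ratio below 0, from 1307 control sites. The WT share was also highest there, at 73.1%. Chromosome X had the most G84E peaks per control site as well, at 2.61, which bears on its additional share. HOXB13 peaks called after knockdown lay on 1.58% of restored sites and 1.31% of sites not restored, and on 0.444% of additional peaks.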
